A study of Mus musculus with 3 samples.

Results

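Of the 13823 HBO1 peaks in the deposited list, 640 lay in gene deserts. A peak was counted as a gene desert peak when its summit was outside every gene body of the GENCODE vM21 annotation, its nearest edge was more than 50 kb from the TSS of any annotated transcript, and it was on chromosomes 1 to 19. A segment of chromosome 3 with 751 peaks and summits from chr3:100131943 to chr3:140383003 was left out, which removed 47 peaks that otherwise met the rule. The 640 peaks were set beside the other 11997 peaks of the same chromosomes: 1616 intergenic peaks 10 to 50 kb from a TSS, 1193 intergenic peaks 1 to 10 kb from one, 3820 peaks within a gene and 5368 within 1 kb of a TSS.

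The cells were mouse embryonic stem cells deficient for Oct1, the ubiquitous Oct4 paralog encoded by Pou2f1, in 2i medium with 3 µM CHIR99021 and 1 µM PD0325901 and fixed in 1% formaldehyde. All samples shared this genotype and medium, so no comparison with Oct1-expressing cells could be made. The samples were 2 HBO1 ChIP samples, of which the label of the second gives its antibody as HBO2 while its title says HBO1, and 1 input. The ChIP samples were represented by 1 combined peak list, so that no value has a replicate error and no p-value is given, and intervals are 95% intervals that cover counting error alone.

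HBO1 (Kat7) is a histone acetyltransferase that acts in complexes with a scaffold subunit such as Jade1 or Brpf and acetylates histone H3 and H4 tails, mostly near the starts of active genes. Gene deserts are long stretches without genes in which remote enhancers can lie, and in which transposable elements make up much of the sequence. In mouse, young LINE-1 elements begin with a promoter built of tandem monomers and encode a long second open reading frame, while endogenous retroviruses carry promoters in their long terminal repeats. Oct4 binds the octamer and its palindromic relative, the MORE.

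The sequences under the gene desert peaks fell largely into families of near copies. Members were called alike when 300 bases around their summits aligned at 80% identity or more over at least 150 bases, and members linked by such alignments formed a family. A central member, alike to many others, is shown for each of the 4 largest families, A (121 members), B (69), C (50) and D (34), on the plus strand of GRCm38 (mm10), read from RefSeq. Capitals mark the YY1-type word AAGATGGC in family A and the CCAAT box in B, C and D, on either strand.
Family A, chr2:107976884-107977183: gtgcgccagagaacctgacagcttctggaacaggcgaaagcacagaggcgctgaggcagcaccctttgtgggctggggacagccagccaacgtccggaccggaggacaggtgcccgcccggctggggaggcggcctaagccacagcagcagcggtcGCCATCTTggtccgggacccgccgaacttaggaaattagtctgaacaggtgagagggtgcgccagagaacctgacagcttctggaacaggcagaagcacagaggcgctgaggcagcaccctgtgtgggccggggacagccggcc
Family B, chr8:102009942-102010241: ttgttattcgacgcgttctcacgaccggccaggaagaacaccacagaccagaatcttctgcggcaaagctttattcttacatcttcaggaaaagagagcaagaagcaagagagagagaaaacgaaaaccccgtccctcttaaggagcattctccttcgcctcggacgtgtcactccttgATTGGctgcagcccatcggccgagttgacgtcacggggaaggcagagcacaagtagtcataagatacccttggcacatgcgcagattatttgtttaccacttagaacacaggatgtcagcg
Family C, chr1:103032665-103032964: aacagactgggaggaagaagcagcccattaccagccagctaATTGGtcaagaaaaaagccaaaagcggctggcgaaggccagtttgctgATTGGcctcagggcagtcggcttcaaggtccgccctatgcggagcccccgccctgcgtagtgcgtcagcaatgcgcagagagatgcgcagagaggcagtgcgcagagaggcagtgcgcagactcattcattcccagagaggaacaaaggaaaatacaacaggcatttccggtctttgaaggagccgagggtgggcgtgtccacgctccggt
Family D, chr12:95803015-95803314: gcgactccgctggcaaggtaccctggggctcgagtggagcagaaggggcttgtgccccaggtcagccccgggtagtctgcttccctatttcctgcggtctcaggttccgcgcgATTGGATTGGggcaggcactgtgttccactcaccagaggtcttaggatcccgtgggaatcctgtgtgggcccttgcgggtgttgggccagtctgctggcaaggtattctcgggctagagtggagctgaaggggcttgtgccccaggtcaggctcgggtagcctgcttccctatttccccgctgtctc

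In the family A sequence, the first bases came back 212 bases later, where 94.3% of the 88 overlapping bases were identical. In family D the best shift within the window was 198 bases, with 79.4% of 102 bases identical. Windows of families B and C held no such internal repeat (38.4% and 36.9% at the best shift).

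The members with the highest fold enrichment, the member with the highest fold enrichment and no repeat-masked base, and the single member with an octamer are shown next, again as 300 bases around the summit on the plus strand of GRCm38 (mm10). Capitals mark CCAAT in the first 2 and the octamer in the last. The first belongs to family B and the second to family K, and the last 2 resembled no other member.
Near Rgs1, chr1:144384172-144384471: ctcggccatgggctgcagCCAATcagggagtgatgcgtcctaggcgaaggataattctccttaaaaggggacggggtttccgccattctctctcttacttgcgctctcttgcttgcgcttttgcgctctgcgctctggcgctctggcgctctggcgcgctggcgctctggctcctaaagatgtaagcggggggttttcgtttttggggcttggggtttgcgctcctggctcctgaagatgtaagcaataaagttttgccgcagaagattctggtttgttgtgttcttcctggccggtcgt
Near Adgrl2, chr3:148751476-148751775: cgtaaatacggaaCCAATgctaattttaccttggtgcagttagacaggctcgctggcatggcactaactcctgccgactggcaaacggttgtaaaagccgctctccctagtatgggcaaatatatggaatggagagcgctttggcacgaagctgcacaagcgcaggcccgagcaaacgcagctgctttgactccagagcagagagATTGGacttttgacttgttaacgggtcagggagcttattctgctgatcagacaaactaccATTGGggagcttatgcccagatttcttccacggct
Near Sipa1l2, chr8:125355213-125355512: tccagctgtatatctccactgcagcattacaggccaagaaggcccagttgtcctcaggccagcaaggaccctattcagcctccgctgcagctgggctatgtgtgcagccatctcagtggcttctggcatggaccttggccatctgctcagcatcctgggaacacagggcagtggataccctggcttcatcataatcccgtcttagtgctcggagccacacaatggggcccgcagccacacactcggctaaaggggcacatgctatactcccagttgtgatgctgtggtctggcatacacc
Near Med10, chr13:69906682-69906981: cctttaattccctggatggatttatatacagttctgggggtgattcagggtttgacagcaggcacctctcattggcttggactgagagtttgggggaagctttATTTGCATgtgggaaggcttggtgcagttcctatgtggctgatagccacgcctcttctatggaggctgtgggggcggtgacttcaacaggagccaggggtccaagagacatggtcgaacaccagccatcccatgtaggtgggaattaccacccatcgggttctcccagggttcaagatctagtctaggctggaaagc

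Gene deserts made up 364.6 Mb, or 15.5%, of the 2355 Mb of counted sequence and held 5.06% of the peaks (4.69 to 5.46%). This corresponded to 1.76 peaks per Mb in deserts against 6.03 per Mb elsewhere, a ratio of 0.291 (0.269 to 0.315). Without the peaks within 1 kb of a TSS, the rest of the autosomes still held 3.33 peaks per Mb. The 640 members were spread over 487 of the 3474 desert stretches, and 389 stretches held a single member. Density ranged from 1.19 members per Mb on chromosome 10 to 2.65 on chromosome 8. On chromosome 8, 15 of 57 members came from 1 stretch between Gm21119 and the beta-defensin gene Defb33, and without them the density was 1.95 per Mb.

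Gene desert peaks were neither the strongest nor the weakest peaks of the list. Their median fold enrichment, the authors' ratio over local background, was 4.12 (3.80 to 4.39), with a range from 1.49 to 10.1. Intergenic peaks 10 to 50 kb from a TSS had a median of 4.61 (4.52 to 4.75), peaks within a gene 4.71 (4.64 to 4.80) and peaks within 1 kb of a TSS 2.68 (2.65 to 2.71). Of the members, 156 had a −log10 q of 10 or more, or 24.4% (21.1 to 27.9%). This was close to the 24.5% of all peaks tested, which include the peaks within 1 kb of a TSS with 33.7%. The share was 19.4% (17.5 to 21.4%) in intergenic peaks 10 to 50 kb from a TSS. It was 18.4% in those at 1 to 10 kb and 15.5% within a gene. The intervals of the members and of intergenic peaks 10 to 50 kb away overlapped. Without peaks of over 50 input read ends the share of the members was 18.8% (15.3 to 22.8%). The median width was 343 bp (336 to 349), close to the 342 bp of intergenic peaks 10 to 50 kb away and below the 429 bp of peaks at TSSs.

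The input separated the members into kinds. Read ends in 1 kb around the summit had a median of 14 (12 to 17) but an interquartile range of 6 to 70, with 276 members at 10 or fewer and 157 above 70. Windows 5 kb from the same summits had a median of 3 input read ends. Fold enrichment fell as input rose (Spearman's correlation = −0.82 over 640 members of 1 list and 1 input, as a description). Members with at most 5 input read ends had a median fold enrichment of 5.55, and those above 70 had 2.30. The same medians in intergenic peaks 10 to 50 kb away were 5.55 and 2.16. Peaks within 1 kb of a TSS also had 5.55 at 5 read ends or fewer, so this value does not tell the classes apart. All peaks had passed the q limit of peak calling, and its part in these medians and in the correlation was not tested. Whether this input was the control of the peak calling is not given in the sources used here.

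**Figure D1:**
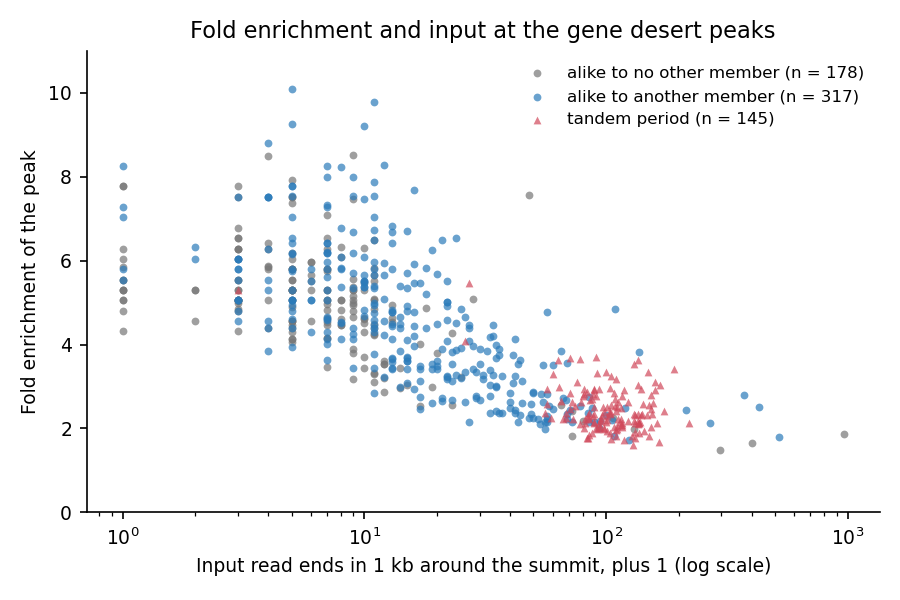
Fold enrichment of each of the 640 gene desert peaks (vertical axis, ratio) against input read ends in 1 kb around its summit plus 1 (horizontal axis, log scale), with triangles for members in tandem arrays, blue points for other members alike to another and grey points for the rest. Triangles gather at high input and low fold enrichment, with medians of 103 read ends and 2.34.

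Most members lay in repeat sequence. The median member had 100% of its 300 bases in lower case, the repeat mask of the RefSeq copy of GRCm38, while 39.4% of all gene desert bases were masked. At least 50% of the window was masked in 485 members, or 75.8% (72.3 to 79.1%). This share was 49.6% (46.8 to 52.4%) in windows 5 kb away, 53.3% (50.9 to 55.8%) in intergenic peaks 10 to 50 kb from a TSS, 23.6% in peaks within a gene and 3.48% in peaks within 1 kb of a TSS. Short tandem repeats took almost no part in this. A tract of at least 24 bp of exact copies of a unit of 1 to 6 bp was found in 2 members (0.313%, 0.0379 to 1.12%). They were near Etaa1 and near Gm26897. The share was 1.65% in all peaks, 1.79% (1.21 to 2.57%) in intergenic peaks 10 to 50 kb from a TSS and 4.86% in windows 5 kb away. Longer units were not counted by this measure.

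Most members had near copies among the other members. Of the 640 members, 459 were alike to at least 1 other, or 71.7% (68.1 to 75.2%), in 29 families of which 11 had 10 members or more. Among windows 5 kb to the left of the summits, 35.6% were alike to another window of that set, and 35.4% to the right. Of the windows on both sides, 7.84% (6.42 to 9.45%) were alike to a member. The share of peaks alike to a gene desert member was 46.4% (44.0 to 48.9%) among intergenic peaks 10 to 50 kb from a TSS, 31.1% at 1 to 10 kb, 18.0% within genes and 2.03% at TSSs. The families thus also held peaks outside deserts, and the share was lower in each class nearer to genes.

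**Figure D2:**
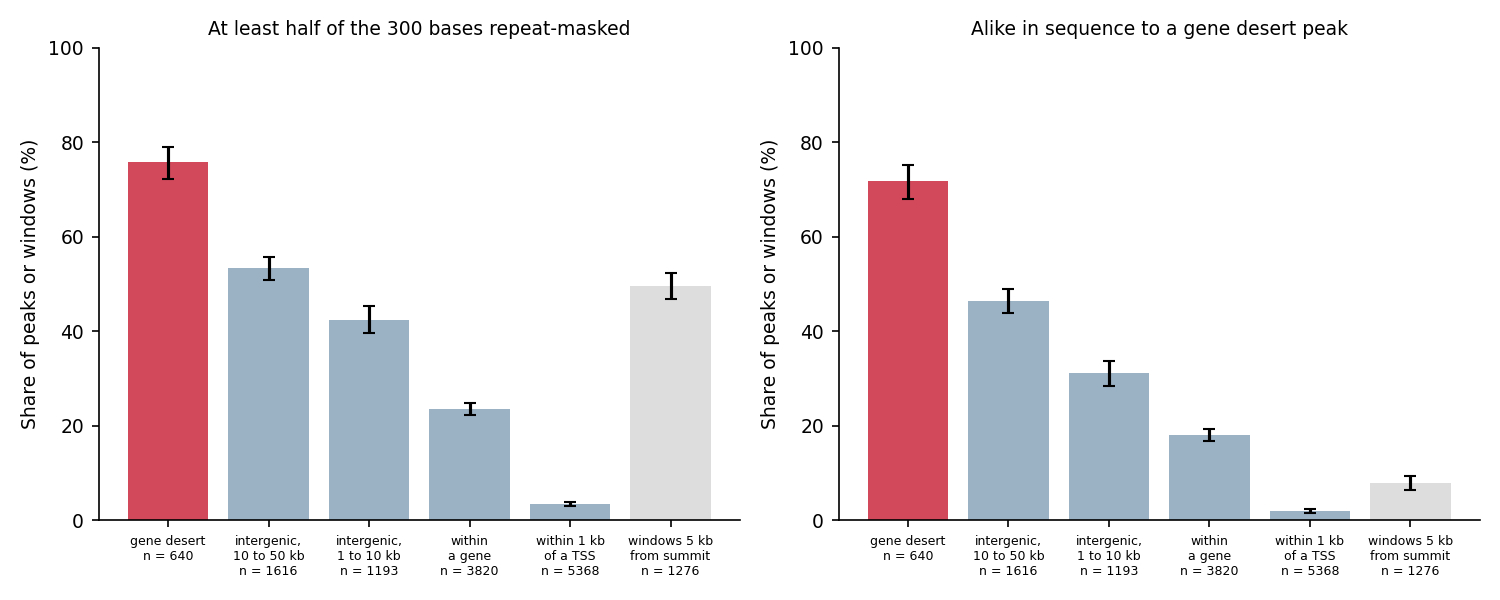
Bars give the share of peaks, in %, with at least 50% of the 300 bases around the summit repeat-masked (left) and alike in sequence to a gene desert peak (right), by position relative to genes and for windows 5 kb from the gene desert summits, with exact binomial 95% intervals. The gene desert peaks are highest in both panels, at 75.8% and 71.7%, and the peaks at TSSs lowest, at 3.48% and 2.03%.

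Family A was the largest and had the features of tandem arrays. Its 121 members were on all 19 chromosomes and matched each other at a median identity of 96.9%. Around 98 of them, 1500 bases of sequence matched themselves at more than 50% of positions when shifted, with a median shift of 212 bases. Fold enrichment in the family was low, with a median of 2.37 (range 1.61 to 4.09), and the input was high, with a median of 92 read ends. Their GC content was 64.7% with 19 CpG per 300 bases. An open stretch of at least 3000 bp without a stop codon lay within 8 kb of the summit in 98 of the 121, with a family median of 3900 bp.

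Families D and F resembled A in these measures but held other sequences. The 34 members of family D had a median fold enrichment of 2.68, input of 82.5 read ends and GC content of 62.7%, and the tandem shift was 208 bases in the median of 19 members. In family F, 21 members had a median fold enrichment of 2.17 and input of 108 read ends, with a median shift of 206 bases in 12 members. An open stretch of at least 3000 bp was near 21 members of D and 18 of F. Over all members, in families or not, 145 (22.7%, 19.5 to 26.1%) were in tandem arrays. Of these, 122 had a shift of 200 to 220 bases and 85 of exactly 212. The same measure was met by 5 of the 636 windows 5 kb to the right without N bases.

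Of the 157 members with more than 70 input read ends, 128 were in such arrays. Among the members outside arrays, 68 of 495 (13.7%) had an open stretch of at least 3000 bp, against 122 of 145 (84.1%) within them. The elements were not named here, since no library of repeat sequences was used.

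Families B, C and E differed from the arrays. The 69 members of family B had a median fold enrichment of 5.34 (range 2.47 to 10.1) and a median of 8 input read ends, with a GC content of 51.7% and 16 CpG per 300 bases. None of them was in a tandem array, and 11 had an open stretch of at least 3000 bp nearby. Of the 10 highest fold enrichments among all members, 5 belonged to this family. The 50 members of family C were intermediate, with a median fold enrichment of 3.24, 31 input read ends and a GC content of 56.0%. The 22 members of family E had a median fold enrichment of 4.63, 16 input read ends and 98.9% identity over pairs called alike. Over all members, the median fold enrichment was 5.22 at 6 to 10 input read ends, 4.12 at 11 to 20 and 3.42 at 21 to 40. Differences between families at like input were not tested.

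Some members of these families lay near each other along the chromosome. Of the 53 groups of members chained at distances of up to 10 kb, 11 held 2 or more members alike to no other, 9 held family A with itself, 5 held B with E and 4 held B with C. A group of B, E and K had 3 members within 2.40 kb, at chr13:83419010-83421412 nearest to Mef2c, which encodes a MADS-box transcription factor of muscle and neurons. Its members of families B, K and E had fold enrichments of 6.42, 6.50 and 5.69.

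Copies of a family in the genome mostly had no peak. Loci that matched the central member of each family at 80% identity over 150 bases were counted, with matches within 500 bp taken as 1 locus. Family A had 977 such loci in gene deserts, and 113 of them overlapped a peak, or 11.6% (9.63 to 13.7%). In family B 62 of 1244 loci had a peak (4.98%, 3.84 to 6.34%), in family C 49 of 300 (16.3%, 12.3 to 21.0%) and in family D 33 of 1176 (2.81%, 1.94 to 3.92%). For copies outside gene deserts the shares were 13.8% (12.5 to 15.2%) in A, 6.18% (5.49 to 6.93%) in B, 19.1% (16.8 to 21.6%) in C and 3.35% (2.72 to 4.07%) in D. The desert share was the lower one in each of these 4 families. It was also lower in E (8.85 against 9.32%), F (5.26 against 8.20%), G (10.8 against 13.2%) and H (3.05 against 3.11%). The intervals of the desert and other copies overlapped in each of families A to H, and the difference was not tested.

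Within family A, copies with a peak were closer to the central member. Those in deserts had a median identity of 97.7% and a locus length of 849 bp, against 88.8% and 425 bp for copies without a peak. Their input was 83 against 42 read ends, but with a mapping quality of at least 20 the order turned, with 17 against 25. In family F the identities were 99.0% and 85.3%, in family B 88.7% and 85.8%, and in families D and H the order was the other way, with 86.4% and 87.6% in D and 82.6% and 83.3% in H. The central members were themselves peaks, which favours copies with a peak in this measure. That of family D matched the desert copies with a peak at 86.4%, while pairs of D members called alike had a median of 95.5%. No test was made.

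**Figure D3:**
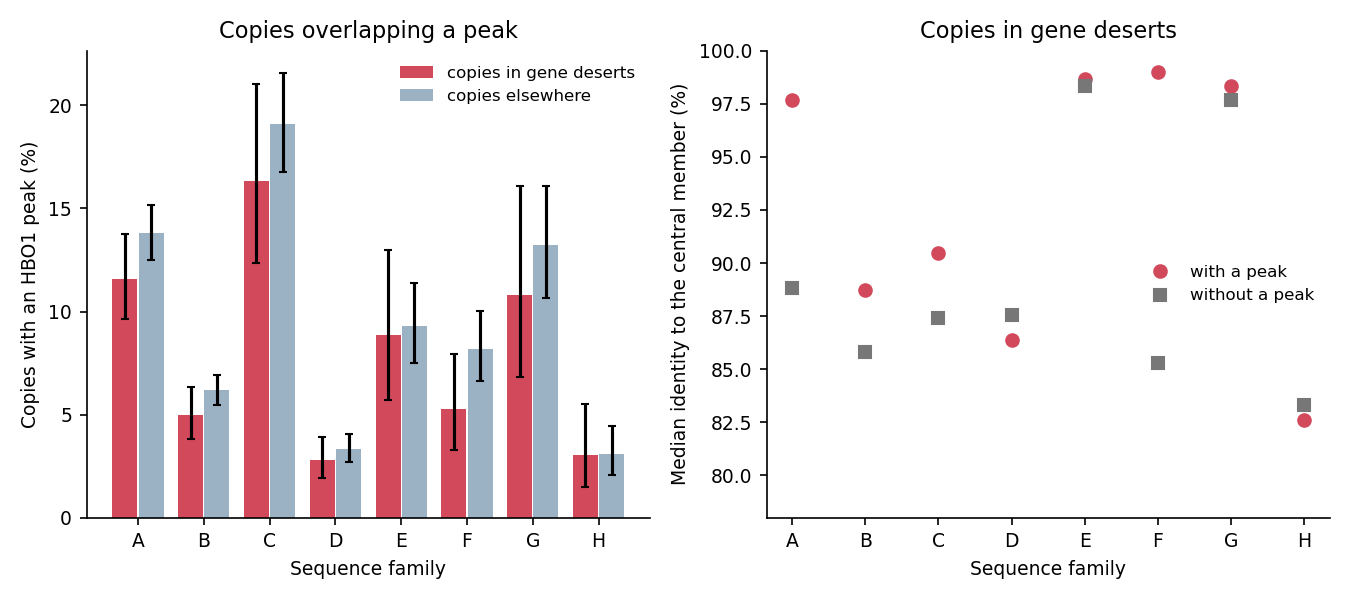
Left, share of the genomic copies of families A to H that overlap an HBO1 peak, in %, for copies in gene deserts (red) and elsewhere (blue), with exact binomial 95% intervals. Right, median identity in % of gene desert copies with (circles) and without (squares) a peak to the central member of the family, on an axis that starts above 0. Families A and F show the widest gap between circles and squares.

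Pooled over all read ends, mapping quality of the input was low at the members and at the intergenic peaks most like them. Peaks with the most read ends weigh most in the pooled shares. Of the input read ends at the members, 22.9% had a mapping quality of at least 20, close to the 26.8% of intergenic peaks 10 to 50 kb from a TSS. The share was 57.9% in intergenic peaks at 1 to 10 kb, 65.8% within genes and 95.7% at TSSs, and 38.4% in windows 5 kb from the member summits. At 90 members input read ends were present but none had this quality. With the quality limit, the median input at the members was 6 read ends (5 to 6) in place of 14. At intergenic peaks 10 to 50 kb from a TSS it was 6 in place of 10. By family, the share was 19.5% in A, 53.8% in B, 13.8% in C and 3.00% in E. How the ChIP reads were placed among copies was not analysed here, and its part in these peaks was not tested.

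GC content was raised at the summits. The 300 bases around the summits had a median GC content of 56.0% (55.3 to 56.3%) against 41.3% (40.7 to 41.7%) 5 kb away and 39.2% over all gene desert bases. Intergenic peaks 10 to 50 kb from a TSS had 55.3% and peaks at TSSs 69.3%. More than 50% GC was found in 614 of 640 members (95.9%), a share close to the 97.2% of the other peaks. CpG dinucleotides numbered 13 per 300 bases in the median (12 to 14). This was above the 8 of intergenic peaks 10 to 50 kb away and the 2 of windows 5 kb away, and below the 31 at TSSs. Split at 5, 10, 20, 40 and 70 input read ends, from low to high, the members had 5.5, 7, 12, 15, 17 and 19. Intergenic peaks 10 to 50 kb away had 6, 6, 9, 14, 17 and 19 in the same order.

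The octamer, the site bound by Oct4 and Oct1 monomers, was rare at the members, as it was at all peaks. The word ATGCAAAT on either strand was in the 300 bases of 1 member (0.156%, 0.00396 to 0.867%), at chr13:69906641-69907011 with a fold enrichment of 4.94. In 500 bases around the summits the share was 1.09% (0.441 to 2.24%). The word was in 0.396% of all peaks and in 0.433% of intergenic peaks 10 to 50 kb from a TSS, in 300 bases. Both shares lay within the interval of the members for 300 bases. In windows of 300 bases at 2, 3, 7, 10 and 20 kb from the member summits the share was 1.64, 1.64, 2.60, 3.71 and 2.45%. Windows 5 kb away stood apart with 8.78% (7.28 to 10.5%). At these distances the median GC content was 40 to 41.3%, against 56.0% at the members. The part of this difference in the octamer shares was not tested. Of the 5 kb windows beside members in tandem arrays, 50 of 290 had the word (17.2%), against 9 of 360 (2.50%) beside members alike to no other, so that the 5 kb share is not a general level for sequence outside peaks. The mutated octamer AAACTACT, a control of like composition, was in 1.33% of the windows 5 kb away. At 2, 3, 7, 10 and 20 kb its share was 0.469, 0.783, 0.866, 0.868 and 0.948%. It was in 0 members, which allows a share of up to 0.469% by 3 counts and 0.575% by the exact binomial interval. A MORE, 2 copies of ATGCAT in a row with 1 mismatch allowed, and an Oct:Sox site, CATTGTN before ATGCAAAT with 2 mismatches allowed, were each in 0 members, with the same limits. These were in 0.549% and 0.940% of windows 5 kb away, and in 0.0317% and 0.0791% of all peaks.

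Words for other factors of pluripotent cells were each in under 5% of the members, with differing relations to the comparison sets. For these words no distance other than 5 kb was counted. The windows 5 kb away had a median GC content of 41.3% against 56.0% at the members. The part of this difference in the shares was not tested. The Esrrb word TCAAGGTCA was in 6 members (0.938%, 0.345 to 2.03%), against 0.470% of windows 5 kb away and 0.562% of all peaks. The Klf word CCACACCC was in 9 (1.41%), level with the 1.33% of those windows and below the 3.36% of all peaks. The Tcf word ATCAAAG was in 7 members (1.09%) and the Stat word TTCNNNGAA in 16 (2.50%), below the 7.45% and 11.1% of those windows, with 1.75% and 4.14% of all peaks. The Sox word CATTGT was in 31 members (4.84%) against 22.1% of those windows and 7.19% of all peaks, and the AP-1 word TGANTCA in 18 (2.81%) against 7.99% and 4.52%. The E-box CACGTG was in 9 members (1.41%) against 2.43% of those windows and 5.20% of all peaks. A CTCF core, CCANNAG before NNGGC, was in 7 (1.09%) against 1.33% and 1.99%.

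Words chosen after the sequences had been seen followed the families. AAGATGGC, the core bound by the zinc finger factor YY1, was in 191 members (29.8%, 26.3 to 33.6%), in 2.82% of windows 5 kb away, in 17.8% of intergenic peaks 10 to 50 kb from a TSS and in 9.06% of all peaks. Without peaks of over 50 input read ends the share was 15.7% (12.4 to 19.4%) in 446 members and 9.62% (8.10 to 11.3%) in the same intergenic class. It was in 110 of the 121 members of family A, 35 of 69 in B and 19 of 21 in F, in 0 members of C, D and E, and in 0 of the 102 members with under 10% of masked bases. The Ets word CCGGAAG was in 101 members (15.8%) and in 0.627% of windows 5 kb away, which are poorer in G and C. It was in 8.91% of intergenic peaks 10 to 50 kb away and 7.47% of all peaks, and 91 of the 101 members were in family A. The Sp word GGGCGG was in 191 members (29.8%), including all 50 members of family C, against 2.51% of windows 5 kb away. This was above the 23.5% of intergenic peaks 10 to 50 kb away but below the 36.3% of all peaks and the 58.2% of peaks at TSSs. The NF-Y word CCAAT was in 256 of the 640 members (36.2 to 43.9%) against 614 of the 1616 intergenic peaks 10 to 50 kb away, 44.2% of windows 5 kb away and 25.01% of all peaks, with 57 of 69 members of B and all 34 of D among them. A match says that these letters were present, and binding of these factors was not measured.

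**Figure D4:**
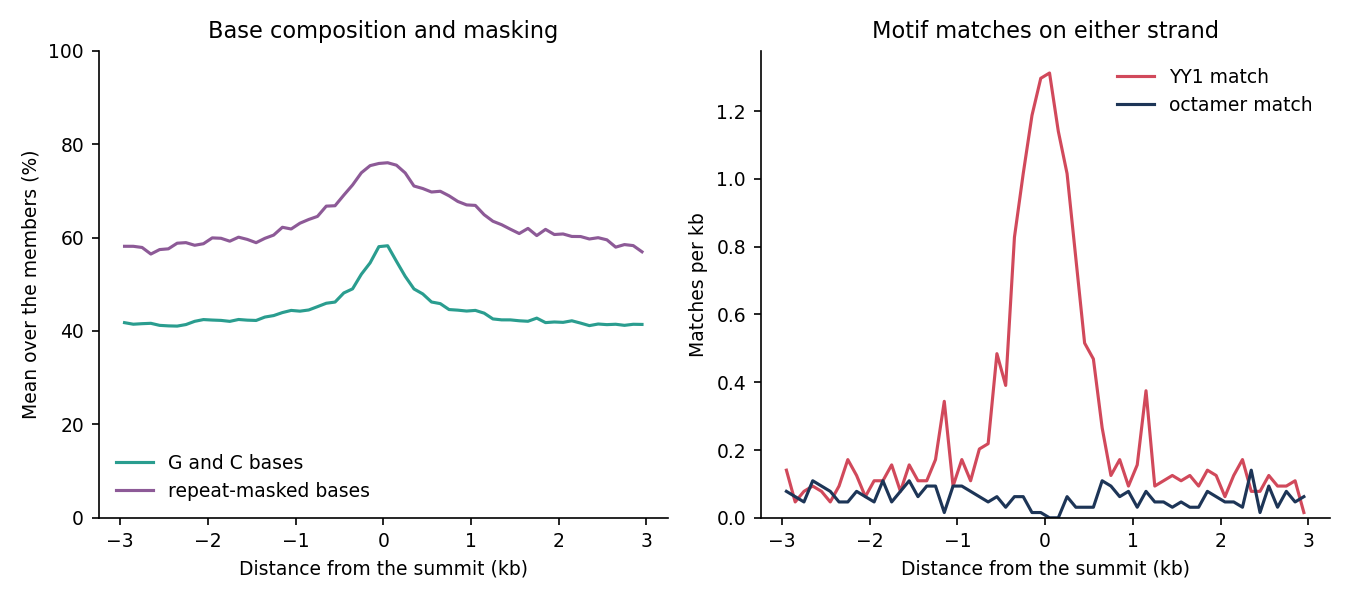
Mean over the 640 gene desert peaks in bins of 100 bp within 3 kb of the summit. Left, G and C bases and repeat-masked bases in %. Right, matches per kb of the YY1 word and of the octamer on either strand. GC content is 58.1% in the bin just before the summit and 58.3% in the bin that starts at it, and 41.4% in the last bin, and YY1 matches are densest at the summit while octamer matches are not.

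The members outside repeats were a small set with low input. In 102 members under 10% of the window was masked, and none of them was alike to another member. They had a median fold enrichment of 5.06, no higher than the 5.55 of all members with at most 5 input read ends, and themselves had a median of 5 input read ends, a GC content of 55.0% and 5 CpG per 300 bases, and 95.1% of their input read ends had a mapping quality of at least 20. Of these, 11 had a −log10 q of 10 or more (10.8%), below the 30.1% of members alike to another.

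The 4 of these peaks with the highest fold enrichment lay 77776 to 137250 bp from a protein-coding TSS. The peak at chr8:125355038-125355460 reached 8.52-fold enrichment with a −log10 q of 15.7, and was 137250 bp from the nearest protein-coding TSS, that of Sipa1l2. At chr16:29688070-29688451, 101056 bp from Opa1, a GTPase of mitochondrial fusion, the fold enrichment was 8.50 and the −log10 q 13.8. The peaks at chr4:11843314-11843637, 85121 bp from the cadherin gene Cdh17, and at chr2:174931976-174932465, 77776 bp from Gm14444, both had 7.77 and 11.7. In the order given, these 4 peaks had only 8, 3, 2 and 0 input read ends in 1 kb.

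Over all 640 members, the highest fold enrichment was at chr1:144384160-144384544, with 10.1 and a −log10 q of 19.8, and its nearest annotated TSS was that of the pseudogene Gm7266 at 71724 bp. The next was at chr3:148751241-148752094, 70885 bp from Adgrl2, a latrophilin receptor of synapses, with 9.78 and 21.9. The third was at chr13:7949206-7949523, with 9.25 and 16.0, in family B like the first. The nearest protein-coding genes of the 10 highest were Rgs1, Adgrl2, Adarb2, Pced1b, 4930452B06Rik, Sipa1l2, Opa1, Ift57, Lnpk and Ncam2, at 70885 to 905912 bp. Of the 10 highest, 8 were in families and all had at most 11 input read ends.

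High −log10 q marked other loci. The 5 highest included 3 peaks near Atg7, an enzyme of autophagy, in the stretch between Hrh1 and Atg7 on chromosome 6. The peak at chr6:114554519-114554828 had a −log10 q of 53.3 at a fold enrichment of 2.80, with 370 input read ends. The peak at chr6:114560914-114561430 had a −log10 q of 46.0, a fold enrichment of 1.86 and 960 input read ends, the highest input of any member. By contrast, the peak at chr16:50994338-50994699, near the lincRNA gene Gm32431, had a −log10 q of 48.6 with a fold enrichment of 7.56 and 47 input read ends.

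Most members had no other peak nearby. Another HBO1 peak lay within 10 kb in 125 members, or 19.5% (16.5 to 22.8%), against 24.3% (22.2 to 26.5%) of intergenic peaks 10 to 50 kb from a TSS and 33.8% (33.0 to 34.7%) of all peaks outside deserts. The first 2 of these intervals overlapped. The shares are not corrected for density, which was 1.76 peaks per Mb in deserts against 6.03 elsewhere, and no excess over even spacing was tested. Chained at 10 kb, 517 members were alone, 46 groups held 2 and 7 groups held 3 or more. The 2 largest groups, of 8 and 7 members, were at chr8:20665461-20688647 and chr8:20701343-20710093. They held all 12 members of family J, with a median shift of 156 bases, 0 CpG per 300 bases in the median and 100.5 input read ends. A group of 4 at chr6:114525469-114540176 had fold enrichments of 1.80 to 3.83 with 105 to 517 input read ends. A group of 3 at chr5:33528435-33535392, between Fam53a and Nkx1-1, had no member in a family and all of its input read ends at a mapping quality of at least 20. Its fold enrichments were 1.82 to 4.87.

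The nearest TSS of any kind was a median of 84961 bp away and at most 593499 bp. It belonged to a processed pseudogene in 227 members (35.5%), a lincRNA in 133 (20.8%) and a protein-coding gene in 126 (19.7%). The nearest protein-coding TSS was a median of 230830 bp away, and more than 500000 bp away in 153 members. The 2 members just inside the 50 kb limit were 50002 and 50049 bp from a TSS, with fold enrichments of 4.98 and 2.13, and the 2 intergenic peaks just outside were at 49986 and 49930 bp, with 5.32 and 1.72.

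The members were nearest to 438 protein-coding genes. These were 18.7% of the 2337 genes that were the nearest protein-coding gene of some gene desert base. Genes of neuronal adhesion and guidance, such as cadherins, protocadherins, contactin-associated proteins and teneurins, stood above this share, with 34 of 65 genes (52.3%, 39.5 to 64.9%). The deserts beside these genes were long, however, with 43.3 Mb in all, and held 1.50 members per Mb against 1.76 over all genes. Of lineage transcription factors, 11 of 66 genes had a member (16.7%, 8.62 to 27.9%), at 1.43 members per Mb. Signalling ligands and antagonists had 1 of 25 (4%, 0.101 to 20.4%), which was the Wnt antagonist Sfrp1, an interval that includes the share over all genes. Chemosensory receptors had 0 of 23, but were the nearest genes of 586 kb of desert in all, too little to show a lower density.

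Pluripotency genes had a member beside 1 of 17 genes (5.88%, 0.149 to 28.7%). The gene was Tbx3, a T-box factor of naive pluripotent cells, and the peak was at chr5:119385684-119385972, 284697 bp from its TSS, with a fold enrichment of 5.36, 8 input read ends and 7.67% of masked bases.

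Neuronal adhesion genes had up to 5 members each. Cntnap5a, a neurexin-like protein, and the protocadherin Pcdh7 had 5, and in Cntnap5a these had fold enrichments of 2.13 to 4.12 and 12 to 136 input read ends. The cell adhesion gene Ncam2 had 4, at 1.78 to 8.26, of which the highest was in family B at 905912 bp. Of the lineage factors, Hand2, a regulator of heart and limb, had 2 members in family A at 2.38 and 1.89, while Gsc, Irx4 and Pou3f3 had 1 each outside families at 4.47, 4.56 and 4.47.

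**Figure D5:**
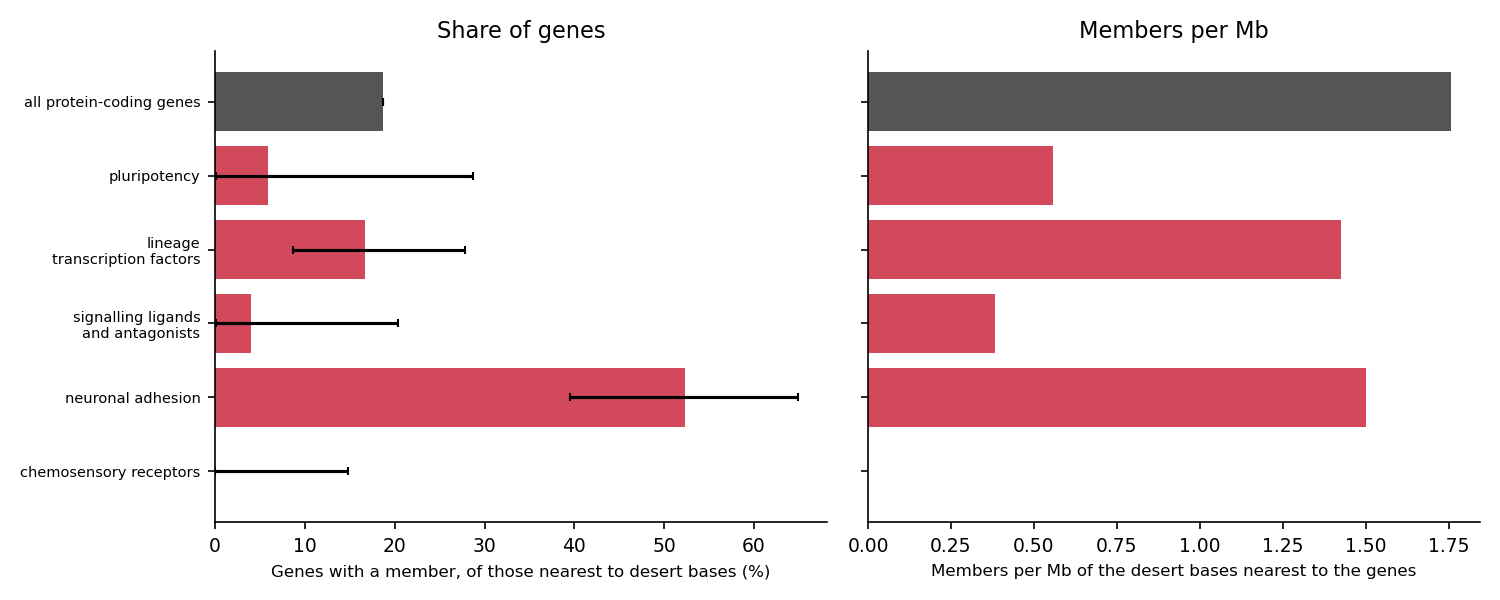
Left, share in % of the protein-coding genes nearest to some gene desert base that are nearest to a gene desert peak, for all genes (grey) and 5 gene lists (red) with exact binomial 95% intervals. Right, gene desert peaks per Mb of the desert bases nearest to the genes of each list. Neuronal adhesion genes are highest on the left, at 52.3%, while on the right they lie below all genes, at 1.50 against 1.76 per Mb.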

How the data were processed

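HBO1 ChIP-seq of Oct1 deficient ESCs comprised 2 HBO1 ChIP samples and 1 input. Per the submitters' notes and the study's methods, reads were aligned to mm10 with Novoalign 4.03.01 and peaks were called with MACS2 at q 0.005 and max-gap 100. How the ChIP samples were combined, and how reads with several placements were treated, is not given in the sources used here. The deposited peak list gives the authors' fold enrichment (a ratio over local background), −log10 q and the summit offset. The deposited input lists aligned read ends with a mapping quality score from the authors' aligner. It held 31973678 read ends, which were counted at midpoints in 1-kb windows, and the depth of the ChIP samples was not analysed here. At a median of 14 read ends per member, input counts of single members are imprecise.

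Genes came from GENCODE vM21 and sequence from RefSeq GRCm38. Sequence windows were 300 bp around the summit. For comparison, windows centered 5 kb to either side were used, and 4 with N bases were left out. Alikeness was scored with blastn 2.17.0, and the tandem shift was the shift of 10 to 500 bases at which 1500 bases around the summit matched themselves best, called at 50% or more. Python 3.11.15, numpy 2.4.6, scipy 1.17.1, pandas 2.3.3 and matplotlib 3.10.9 were used. Shares have exact binomial and medians order statistic 95% intervals. Peak classes, octamer positions, families, tandem shifts, open stretches and short tandem tracts were tested on simulated data. Densities, input counts, genomic copies, chained groups and gene lists were not. The members and gene lists were chosen with earlier results of these data known. Families, shifts, masking beyond the planned share, open stretches, windows at distances other than 5 kb and the YY1, Ets, Sp and NF-Y words were added after the data were seen. The genes named were taken from those nearest to the 10 members of highest fold enrichment, the 5 of highest −log10 q, the largest groups, the members next to a pluripotency gene and the peaks at the 50 kb limit, to which examples from the lists, from members outside repeats and from members with a short tandem tract or an octamer were added after their values were seen. Alternatives varied the q value, the distance limit, the gene set, the input and the windows.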

Additional observations from a re-analysis of the deposited data

How the results depend on the processing

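Of 86 alternatives over 13 results, 40 kept the value within its interval (for counts, within 1.5 times) and 46 moved it, and none turned the density ratio above 1. At a −log10 q of at least 10, 156 members remained, nearest to 132 genes, with a median GC content of 57.0% and input of 40.5 read ends, an octamer share of 0%, a short tandem repeat share of 0%, 12.8% with a neighbour, 85.9% alike and 35.9% with a YY1 word. At 5, the median fold enrichment was 4.50, the octamer and short tandem repeat shares 0% and 0%, and 75.4% were alike. With a 25 kb limit there were 1236 members at a density ratio of 0.321, 66.3% alike and 26.1% with a YY1 word. With 100 kb there were 231 at 0.249, nearest to 177 genes, with octamer and short tandem repeat shares of 0% and 0%, 11.3% with a neighbour and 37.2% with a YY1 word.

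With protein-coding genes alone there were 2070 members, with a median fold enrichment of 4.45, input of 11 read ends and 92.8% of bases masked, 23.1% with a neighbour, 64.0% alike and 22.7% with a YY1 word. Without peaks of over 50 input read ends, the density ratio was 0.326, the median fold enrichment 4.93, the share at a −log10 q of at least 10 18.8%, the GC content 54.7% and the masked bases 98.7%, with 16.4% with a neighbour, 61.0% alike and 15.7% with a YY1 word. GC content was 58.0% in 100 bp and 55.3% over the whole peak. Input was 6 read ends at a mapping quality of at least 20. An octamer was in 1.09% of 500-bp windows. A neighbour lay within 5 kb in 14.7% and within 20 kb in 23.4%, and 65.5% were alike at 90% identity. The q value, distance limit, gene set and input change which peaks are members, and the cause of each move was not tested.

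With 1 peak list and 1 input, the spread between the ChIP samples is unknown. No paired analysis was possible because the result comes from no test between groups.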

Other observations

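Peaks that met the distance and gene body rule but were left out lay on chromosome X (46 peaks), on chromosome Y (29 peaks) and in a segment of chromosome 3 (47 of its 751 peaks).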
